A study of Mus musculus with 6 samples.

Results

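The genes described here are the collagen genes of the mouse, taken by symbol (Col, a type number, the letter a and a chain number) from microarray measurements of CD11c+ cells of the spleen. Of 12393 genes measured by a probe set that names a single gene, 36 were collagen genes, covered by 58 probe sets. A probe set is a group of short probes on the array that report 1 transcript region. A gene with several was represented by its brightest, judged by the mean of the 6 arrays, so level and not the difference between genotypes chose the probe set. The study set 3 arrays from Atg16L1 hypomorphic mice against 3 arrays from wild-type mice. All mice were 8 weeks old, untreated and on the C57BL/6J background, and the cells were selected from spleens with magnetic beads on CD11c, an integrin chain used to mark dendritic cells. Atg16L1 is a protein needed to attach LC3 to autophagosome membranes, and a hypomorphic allele has reduced function. How the allele was made and in which cells it acts are not described in the labels. Nor do the labels tie an array to a single mouse, so the p-values cover only variation among these samples, which may be technical.

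Collagens are secreted or membrane proteins whose chains wind in threes into a triple helix. Fibrillar collagens such as types I, III and V build the fibres of connective tissue, type IV collagen forms the sheet of basement membranes, and the fibril-associated collagens (FACIT) sit on the surface of fibres. In the spleen, collagens are made chiefly by fibroblastic reticular cells, other fibroblasts, smooth muscle and endothelium, whereas dendritic cells and macrophages mostly meet collagen through receptors or break it down.

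Atg16l1 was lower on every hypomorph array, at 6.13, 5.84 and 6.11, against 7.05, 7.11 and 7.04 on the wild-type arrays (log2 change -1.04, SE 0.097, adjusted p = 0.00163 by limma). All values are the deposited log2 values, and all changes are hypomorph minus wild type on that scale. Control probe sets also separated the groups. The 24 poly-A spike-in probe sets, which report bacterial transcripts added to the RNA, averaged 7.69 ± 0.18 on hypomorph and 9.48 ± 0.50 on wild-type arrays (SD, n = 3 each), with no overlap (two-sided exact permutation p = 0.1, the smallest that 3 against 3 arrays allow). The hybridization controls averaged 10.33 ± 0.06 on hypomorph and 11.35 ± 0.28 on wild-type arrays, and the 18S rRNA probe sets 8.76 ± 0.06 on hypomorph and 9.43 ± 0.21 on wild-type arrays. The 3′ minus 5′ difference of beta-actin, a measure of RNA and labelling quality, was 0.737 ± 0.039 on hypomorph and 0.973 ± 0.042 on wild-type arrays (SD, n = 3 each). These 3 measures also did not overlap between the groups (exact permutation p = 0.1 each), and their part in the collagen differences was not tested. The dendritic cell marker Itgax, which encodes CD11c, averaged 9.94 ± 0.07 on hypomorph and 10.32 ± 0.13 on wild-type arrays (SD, n = 3 each). It fell without overlap (log2 change -0.37, adjusted p = 0.0341 by limma). H2-Ab1 averaged 13.38 ± 0.06 on hypomorph and 13.30 ± 0.04 on wild-type arrays (SD, n = 3 each) and did not pass (adjusted p = 0.464 by limma). Both genes lay far above the median gene. Spread between arrays was wider in wild type, where the median SD over collagen genes was 0.248 against 0.166 in the hypomorph. The title of wild-type replicate 1 begins with another prefix than those of the other 5 arrays. Replicate 3 of wild type has a title with a different array name from the rest. The labels do not say what either difference stands for.

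Most collagen genes were dim in these cells. Only Col14a1, Col1a2, Col4a1 and Col3a1 had a mean over all arrays above the median gene (6.24), at 8.04, 7.74, 7.12 and 6.99, and the other 32 lay below it. The nearest member above that line was Col3a1 and the nearest below it was Col4a2, at 5.89. Of the 36 genes, 13 lay below the lower quartile of all genes (3.92), among them Col4a3, Col4a4, Col4a5, Col6a1, Col8a1 and Col11a1. Within the hypomorph 4 collagen genes were above that group's median gene and within wild type 5, the additional one being Col4a2. Probe sets bind their targets with different efficiency, so these ranks place each signal on the array and do not give relative amounts of chains.

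**Figure D1:**
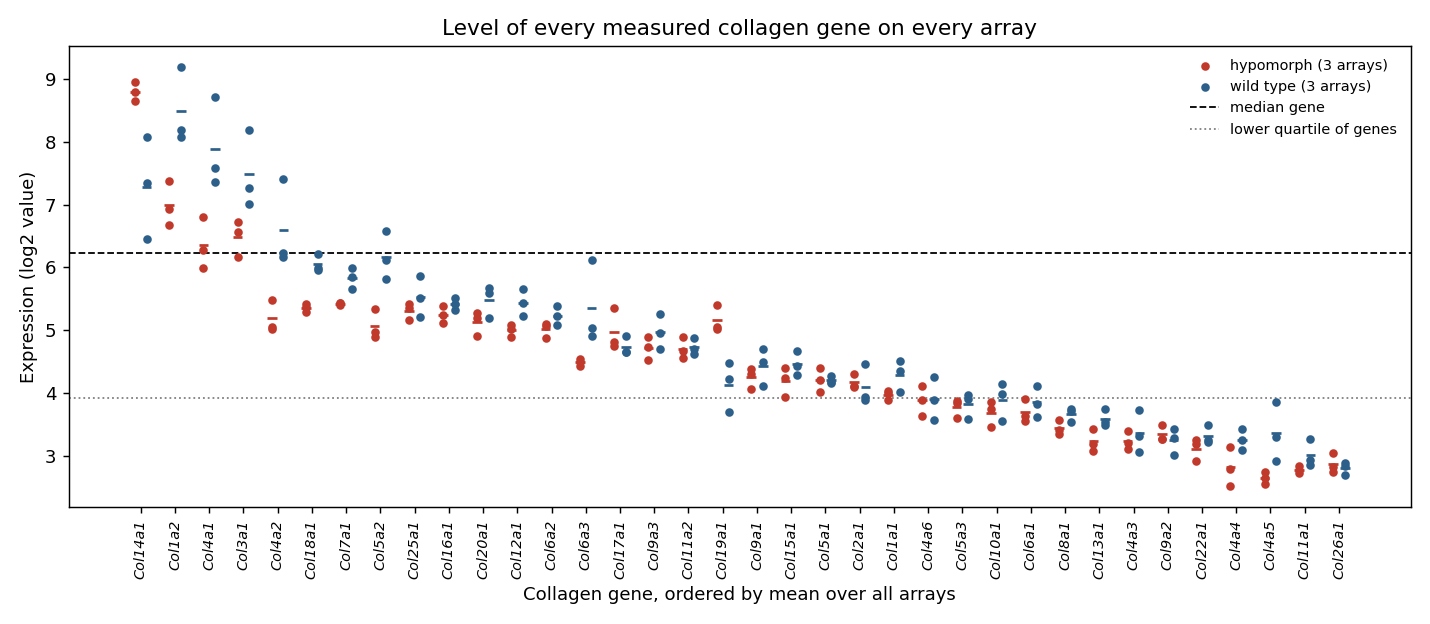
Log2 expression value (vertical axis) of the 36 collagen genes (horizontal axis, ordered by mean) on the 3 hypomorph arrays (red, left of each pair) and the 3 wild-type arrays (blue). Points are arrays, short bars are group means, and the lines mark the median gene (6.24) and the lower quartile of genes (3.92). Above the median line stand Col14a1, with its hypomorph points on top, and Col1a2, Col4a1 and Col3a1, with their wild-type points on top.

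The bases before the start site are shown for 3 members, Col1a2 as the fallen collagen gene of highest level, Col3a1 as a fibrillar partner that did not pass the test, and Col19a1 as a collagen gene that rose. They are the 250 bases upstream of the RefSeq start, from the 5′ to the 3′ end of the gene's strand, on build GRCm38.p6. Capitals mark exact matches, on either strand, to the CCAAT box (CCAAT), the GC box (GGGCGG) or the TATA box core (TATAAA).
Col1a2 (chr6:4505368-4505617, plus strand): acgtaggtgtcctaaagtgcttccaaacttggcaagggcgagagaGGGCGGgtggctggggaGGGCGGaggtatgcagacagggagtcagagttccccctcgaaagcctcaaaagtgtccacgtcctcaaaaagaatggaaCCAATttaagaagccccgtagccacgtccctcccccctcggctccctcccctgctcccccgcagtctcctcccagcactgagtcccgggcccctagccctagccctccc
Col3a1 (chr1:45311288-45311537, plus strand): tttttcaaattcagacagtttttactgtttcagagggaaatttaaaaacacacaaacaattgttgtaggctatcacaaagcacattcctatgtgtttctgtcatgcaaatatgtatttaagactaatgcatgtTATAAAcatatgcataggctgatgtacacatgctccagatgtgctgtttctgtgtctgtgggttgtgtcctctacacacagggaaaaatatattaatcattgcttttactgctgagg
Col19a1 (chr1:24587438-24587687, minus strand): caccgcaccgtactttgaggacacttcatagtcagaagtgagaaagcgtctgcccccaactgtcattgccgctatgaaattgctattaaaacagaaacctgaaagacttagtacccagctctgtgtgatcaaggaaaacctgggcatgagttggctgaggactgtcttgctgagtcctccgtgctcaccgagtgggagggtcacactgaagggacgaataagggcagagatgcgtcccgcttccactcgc
The Col1a2 window held 1 CCAAT and 2 GGGCGG matches and was 62% G and C. The Col3a1 window held 1 TATAAA match with 35.2% G and C, and the Col19a1 window held none of the 3 motifs with 52% G and C. Over the 30 such windows of 27 collagen genes, 40% held CCAAT, 53.3% held GGGCGG and 16.7% held TATAAA, and over all 32851 windows of the RefSeq table the shares were 33.8%, 32.7% and 12.4%. A match is a description of the letters and not a bound site.

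More collagen genes were lower than higher in the hypomorph. By limma across all 12393 genes, 6 of 36 fell at an adjusted p under 0.05, which is 16.7%, against 8.47% of all genes tested. Another 2 rose, which is 5.56%, against 9.76% of all genes tested. Those that fell were the fibrillar genes Col1a2 and Col5a2, the basement membrane genes Col4a1 and Col4a2, Col18a1 and Col7a1, and those that rose were the FACIT genes Col14a1 and Col19a1. The median change over the 36 genes was -0.22, beside -0.05 over all genes tested, and 29 of the 36 had a change below 0 (80.6%, against 59.0% of all genes). The arrays of the 2 genotypes did not overlap for 12 genes that were lower (22.5% of all genes were lower without overlap) and for 2 that were higher (18.5% of all genes). Shares called also depended on level, since 15.6% of all genes above the median gene rose, 11.4% fell and 50.8% had a change below 0. Of the 32 collagen genes not above the median gene, 3.12% rose, 12.5% fell and 81.2% had a change below 0. Genes not above the median gene thus rose and fell less often than all genes, and more of them had a change below 0. The shares over all genes are therefore not matched to the level of most collagen genes. How much of the difference from those shares goes with level was not tested. In bulk samples, fewer cells of a type and less RNA per cell cannot be told apart.

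The calls depended on which arrays were used. Without hypomorph replicate 1, 3 collagen genes fell (2.78% of all genes fell) and 0 rose (4.88%). Without hypomorph replicate 2, 1 fell (1.82% of all genes) and 0 rose (4.91%), and without hypomorph replicate 3, 1 fell (1.55%) and 0 rose (4.44%). In each of these 3 limma fits 2 collagen genes were higher at an unadjusted p under 0.05. Col18a1 was the collagen gene that passed in all 6 fits with 1 array left out. Without wild-type replicate 1, the array with the other title prefix, 7 fell (7.90% of all genes) and 2 rose (8.92%), with Col3a1 and Col4a5 added and Col7a1 lost. Without wild-type replicate 2, 9 fell (8.78%) and 2 rose (9.55%), with Col3a1, Col6a3, Col12a1 and Col20a1 added and Col7a1 lost. Without wild-type replicate 3, 6 fell (6.49%) and 1 rose (8.00%), with Col1a1 added and Col4a1 and Col14a1 lost.

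Other ways of fitting also moved the counts. Averaging probe sets per gene gave 7 fallen (8.20% of all genes) and 2 risen (9.93%). The gene added was Col12a1, which has a single probe set and so kept its values. Quantile normalization gave 7 fallen (9.63%) and 2 risen (9.29%). With trend and robust fitting 5 fell (10.0%) and 1 rose (11.5%), without Col4a1 (adjusted p = 0.0578) and Col14a1 (adjusted p = 0.0655). With the replicate number as a block 3 fell (3.86%) and 1 rose (6.08%), without Col4a1 (adjusted p = 0.0576), Col4a2 (adjusted p = 0.059), Col7a1 (adjusted p = 0.0672) and Col14a1 (adjusted p = 0.0627). Of the 4 collagen genes above the median gene, tested among such genes alone, 3 fell (18.2% of those genes) and 1 rose (21.1%). A further fit took the spike-in signal of each array as a covariate. No collagen gene then passed with limma (1 higher and 0 lower at an unadjusted p under 0.05), nor did any of the 12393 genes (0.00% each way, 1149 at an unadjusted p under 0.05). The standard errors were then 2.96 times as large (median over genes), and the changes moved both ways. Those of Col1a2 (-1.14, SE 1.06), Col4a1 (-1.24, SE 1.25), Col4a2 (-1.02, SE 1.11) and Col3a1 (-1.01, SE 1.03) were about the size of their standard errors. That of Col19a1 was 2.18 (SE 0.48). Those of Col14a1 (0.44), Col5a2 (-0.26), Col18a1 (-0.24) and Col7a1 (-0.10) were smaller than without the covariate. The change of 12 other collagen genes turned its sign. The spike-in signal did not overlap between the genotypes, so this fit cannot tell the signal and the genotype apart.

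**Figure D2:**
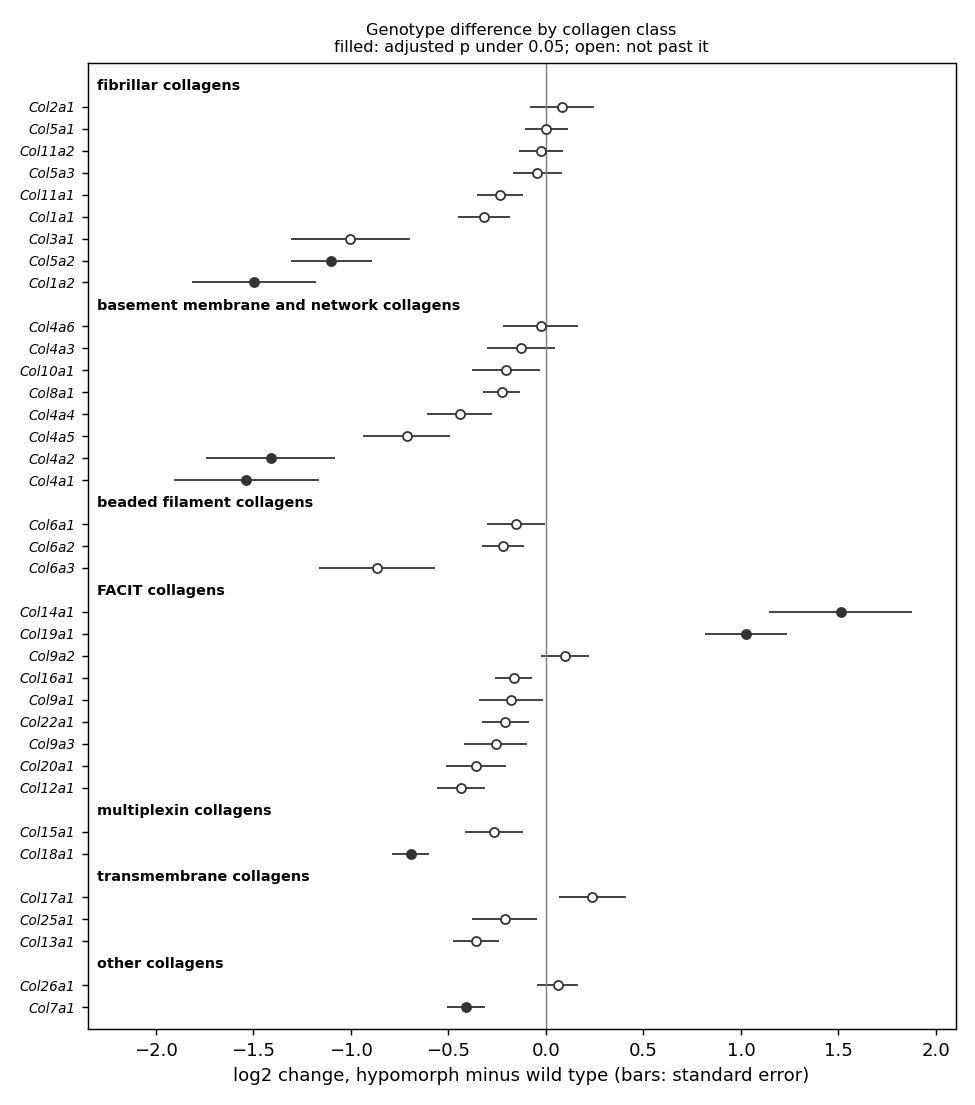
Log2 change, hypomorph minus wild type (horizontal axis), of each collagen gene with its standard error, grouped by collagen class from top to bottom. Filled points passed an adjusted p of 0.05 and open points did not. The filled points left of 0 are Col5a2, Col1a2, Col4a2, Col4a1, Col18a1 and Col7a1, and those right of 0 are Col14a1 and Col19a1.

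Among 9 fibrillar genes measured, 2 fell (22.2%, against 8.47% of all genes) and 0 rose (9.76% of all genes). The other 7 did not pass, and the median change was -0.24. Col1a2, the second chain of type I collagen, stood at 7.37, 6.92 and 6.68 on the hypomorph arrays, against 8.07, 9.19 and 8.19 on the wild-type arrays. The groups did not overlap, and the gene was 2.82-fold lower in the hypomorph (log2 change -1.50, SE 0.32, adjusted p = 0.0216). Its call was lost without hypomorph replicate 2 or 3 (adjusted p = 0.08 and 0.0846).

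Col1a1, which encodes the other chain of type I collagen, was dim, at 4.03, 3.99 and 3.89 on hypomorph and 4.51, 4.35 and 4.01 on wild-type arrays. The groups overlapped, and its change of -0.32 did not pass (SE 0.13, adjusted p = 0.142), although it passed without wild-type replicate 3 (-0.46, adjusted p = 0.0327). Its second probe set gave -0.30 (adjusted p = 0.402), so the arrays did not show for Col1a1 the difference of its partner. Whether the 2 type I genes differed in their change was not tested.

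Col3a1, which encodes the single chain of type III collagen, the main fibre of reticular networks, was at 6.72, 6.56 and 6.17 on hypomorph arrays, against 7.01, 8.19 and 7.27 on wild-type arrays. Every hypomorph value lay below every wild-type value, but the change of -1.005 (SE 0.31) did not pass (adjusted p = 0.0632). It passed after quantile normalization (adjusted p = 0.0491), among genes above the median gene alone (adjusted p = 0.0411) and when wild-type replicate 1 or 2 was dropped (adjusted p = 0.0411 and 0.0483). The change was -0.65 without wild-type replicate 2, its highest array. The second probe set of Col3a1, dim at a mean of 3.37, gave -0.29 (limma adjusted p = 0.178).

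Col5a2, the neighbour of Col3a1 on chromosome 1, encodes a chain of type V collagen, which sets the diameter of type I fibres. It was at 5.34, 4.89 and 4.97 on hypomorph arrays, against 6.12, 6.58 and 5.81 on wild-type arrays. It fell 2.15-fold without overlap (log2 change -1.10, SE 0.21, adjusted p = 0.0152), a call lost without hypomorph replicate 2 or 3 (adjusted p = 0.0644 and 0.066). The other type V genes Col5a1 (change 0.00) and Col5a3 (-0.05) and the cartilage genes Col2a1 (0.08) and Col11a2 (-0.03) differed by less than their standard errors. Col11a1, at -0.24, was lower without overlap and did not pass (adjusted p = 0.212).

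Among 8 genes of the basement membrane and network collagens, 2 fell (25%, against 8.47% of all genes) and 0 rose (9.76% of all genes). All 8 had a change below 0 (median -0.33), but some signs turned under the alternatives. Col4a6 turned positive after quantile normalization and without hypomorph replicate 1 or wild-type replicate 1. Col4a3 did so without wild-type replicate 1, and Col4a3, Col4a6 and Col10a1 with the spike-in covariate. The second probe set of Col8a1 gave 0.04. The 2 that fell, Col4a1 and Col4a2, are neighbours on chromosome 8 and encode the chains of the type IV network found in almost every basement membrane. Col4a1 was at 6.80, 6.27 and 6.00 on hypomorph arrays, against 7.37, 8.72 and 7.58 on wild-type arrays, 2.90-fold lower (log2 change -1.54, SE 0.37, adjusted p = 0.032). Col4a2 was at 5.48, 5.03 and 5.05 on hypomorph arrays, against 6.16, 7.40 and 6.23 on wild-type arrays, 2.66-fold lower (log2 change -1.41, SE 0.33, adjusted p = 0.0298). In both, the groups did not overlap and wild-type replicate 2 stood over 1 log2 unit above the other wild-type arrays.

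Leaving out that array gave -1.12 for Col4a1 (adjusted p = 0.022) and -1.01 for Col4a2 (adjusted p = 0.00939). Without any 1 hypomorph array neither gene passed, with adjusted p from 0.0572 to 0.11 for Col4a1 and from 0.0648 to 0.105 for Col4a2, and Col4a1 also did not pass without wild-type replicate 3 (adjusted p = 0.0545). The 4 other type IV genes encode the chains of specialised basement membranes such as those of the kidney glomerulus, and none of them passed.

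Col4a5, on the X chromosome, was at 2.74, 2.65 and 2.54 on hypomorph arrays, against 2.92, 3.86 and 3.30 on wild-type arrays, without overlap (change -0.71, SE 0.22, adjusted p = 0.0678). It passed without wild-type replicate 1 (-0.94, adjusted p = 0.021), and without replicate 2, its highest array, the change was -0.46 (adjusted p = 0.0586). Its neighbour Col4a6 did not separate the groups, at 3.64, 4.11 and 3.89 on hypomorph and 4.26, 3.89 and 3.58 on wild-type arrays (change -0.03, adjusted p = 0.939). Col4a3 was at 3.40, 3.11 and 3.21 on hypomorph arrays and 3.72, 3.06 and 3.31 on wild-type arrays, and the groups overlapped (change -0.13, adjusted p = 0.644). Col4a4 was at 2.52, 2.79 and 3.14 on hypomorph arrays and 3.43, 3.10 and 3.24 on wild-type arrays (change -0.44, adjusted p = 0.112), so that only the third hypomorph array reached the wild-type range. Col8a1 and Col10a1, network collagens of vessels and of growth cartilage, had changes of -0.23 and -0.21 and did not pass.

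Type VI collagen forms beaded microfibrils around cells, and none of its 3 measured genes passed. Col6a3 was at 4.54, 4.43 and 4.50 on hypomorph arrays, against 4.91, 6.12 and 5.03 on wild-type arrays, without overlap (change -0.87, SE 0.30, adjusted p = 0.0882). Here wild-type replicate 2 again stood apart, and without it the change was -0.48 and passed (adjusted p = 0.0163), the other arrays being close together. Col6a1 was at 3.55, 3.90 and 3.63 on hypomorph arrays and 4.11, 3.82 and 3.62 on wild-type arrays (change -0.16, adjusted p = 0.506). Col6a2, its neighbour on chromosome 10, was at 4.87, 5.06 and 5.10 on hypomorph arrays and 5.38, 5.09 and 5.22 on wild-type arrays (change -0.22, adjusted p = 0.197). For both of these the groups overlapped.

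Col18a1, a basement membrane multiplexin whose end fragment is endostatin, had the smallest standard error of the 8 genes that passed. It was at 5.42, 5.30 and 5.36 on hypomorph arrays, against 6.21, 5.99 and 5.95 on wild-type arrays. It fell 1.62-fold (log2 change -0.69, SE 0.093, adjusted p = 0.00494), with adjusted p from 0.0061 to 0.0313 when any 1 array was left out. The related multiplexin gene Col15a1 overlapped between groups, at 4.24, 3.94 and 4.40 on hypomorph and 4.67, 4.28 and 4.43 on wild-type arrays (change -0.27, adjusted p = 0.255).

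Col7a1, which encodes the anchoring fibril collagen of skin, was at 5.40, 5.44 and 5.43 on hypomorph arrays, against 5.85, 5.98 and 5.66 on wild-type arrays, 1.33-fold lower without overlap (log2 change -0.41, SE 0.097, adjusted p = 0.0301). Its call was lost in 5 of the 6 fits with 1 array left out (adjusted p from 0.0517 to 0.102). No gene of the 3 transmembrane collagens passed, with Col13a1 at -0.36 (adjusted p = 0.0768), Col25a1 at -0.21 and Col17a1 at 0.24. Col26a1 was at 0.06.

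The FACIT genes held both members that rose. Of 9 measured, 2 rose (22.2%, against 9.76% of all genes), 0 fell (8.47% of all genes) and 7 did not pass. Col14a1, whose product binds the surface of type I fibres, was at 8.96, 8.65 and 8.79 on hypomorph arrays, against 6.45, 8.07 and 7.35 on wild-type arrays. The groups did not overlap, although the spread was 0.15 in the hypomorph and 0.81 in wild type (SD, n = 3 each), and the gene was 2.85-fold higher in the hypomorph (log2 change 1.51, SE 0.37, adjusted p = 0.0329). The call was lost without any 1 hypomorph array or wild-type replicate 3 (adjusted p from 0.0754 to 0.107). Without wild-type replicate 1, the lowest array, the change was 1.09 (adjusted p = 0.0266).

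Col19a1, a FACIT gene of basement membrane zones, was at 5.40, 5.05 and 5.02 on hypomorph arrays, against 4.22, 4.48 and 3.69 on wild-type arrays, 2.04-fold higher without overlap (log2 change 1.03, SE 0.21, adjusted p = 0.0194). Its call was lost without any 1 hypomorph array (adjusted p from 0.0604 to 0.0712). Its neighbour on chromosome 1, Col9a1, had a change of -0.18 and did not pass. Col12a1, which like Col14a1 is a fibril surface collagen, lay on the other side, at 4.89, 5.02 and 5.09 on hypomorph arrays, against 5.65, 5.23 and 5.43 on wild-type arrays (change -0.44, SE 0.12, adjusted p = 0.0502). It passed without wild-type replicate 2 (adjusted p = 0.0215). It also passed in the fit of averaged probe sets (adjusted p = 0.0464), but with a single probe set its own change stayed at -0.44 there. The 6 remaining FACIT genes had changes between -0.36 for Col20a1 and 0.10 for Col9a2.

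**Figure D3:**
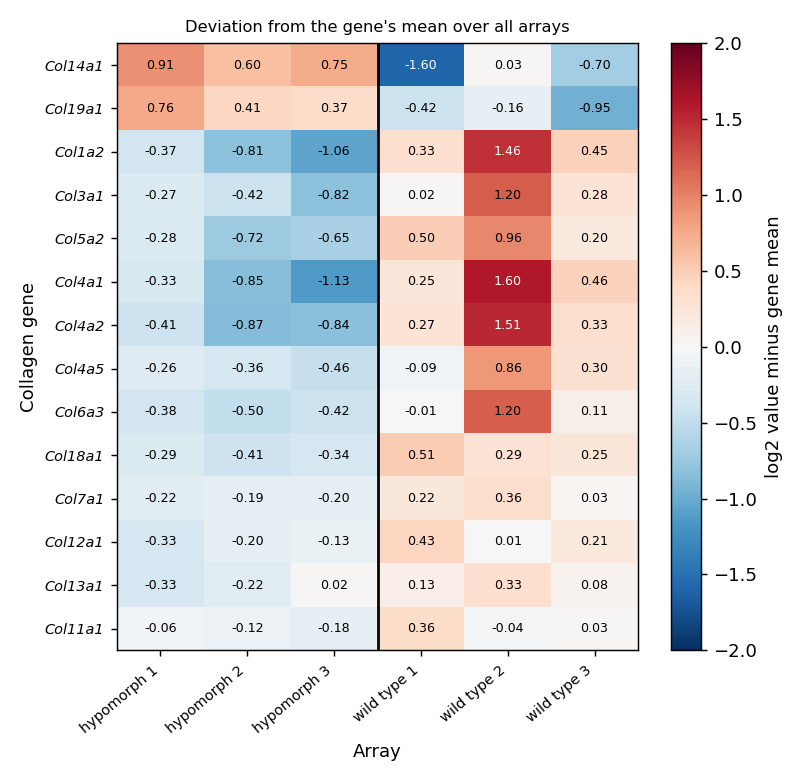
Deviation of each array's log2 value from the gene's mean over all 6 arrays (colour and number) for the 14 collagen genes whose genotypes did not overlap, with hypomorph arrays left of the line and wild-type arrays right of it. Col14a1 and Col19a1 are above their mean on all hypomorph arrays, and wild-type replicate 2 holds the highest value of Col1a2, Col3a1, Col5a2, Col4a1, Col4a2, Col4a5 and Col6a3.

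Patterns across arrays ran through the genes that were lower. For Col1a2, Col3a1, Col5a2, Col4a1, Col4a2, Col4a5 and Col6a3 the highest of all arrays was wild-type replicate 2. This array was the highest for 10 of the 36 collagen genes, or 27.8%, against 15.6% of all genes. Wild-type replicate 1 was the highest for 17 collagen genes, or 47.2%, against 31.8% of all genes, and these included Col18a1, Col12a1 and many dim members. The spike-in signal was highest on wild-type replicate 1 as well, at 9.96, with 9.53 and 8.95 on replicates 2 and 3. Its part in the collagen values cannot be told apart from that of genotype, since the spike-in signal did not overlap between the groups.

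Other probe sets gave a partial check. Of the 36 genes, 19 had more than 1 probe set, and of the 22 probe sets not chosen, 0 passed the threshold when all probe sets were tested by limma (smallest adjusted p = 0.0745). The change had the sign of the chosen probe set for 16 of the 22, and 16 lay below the lower quartile of genes. For Col1a2 and Col4a1 the second probe set was also lower in the hypomorph, by -0.998 (adjusted p = 0.0812) and -1.20 (adjusted p = 0.0745), and for Col14a1 it was higher, by 0.82 (adjusted p = 0.0864). For Col18a1 the second gave -0.32 (adjusted p = 0.144), for Col5a2 -0.15 (adjusted p = 0.278) and for Col19a1 0.04 (adjusted p = 0.835). The second probe sets of Col5a2 and Col19a1 were dim, with means of 3.22 and 2.71, below the lower quartile of genes (3.92). Col4a2 and Col7a1 each had a single probe set.

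**Figure D4:**
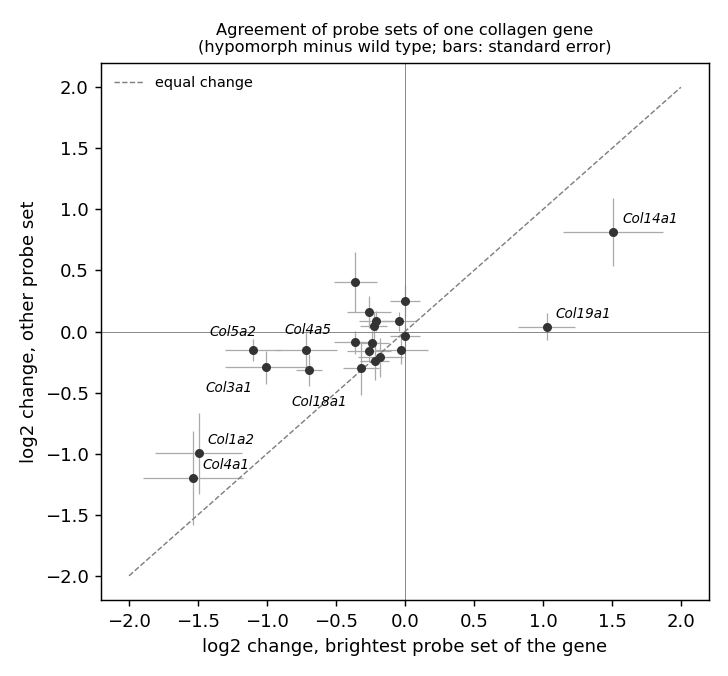
Log2 change, hypomorph minus wild type, of each probe set not chosen (vertical axis) against that of the chosen, brightest probe set of the same collagen gene (horizontal axis), with standard errors and a dashed line of equal change. Col1a2, Col4a1 and Col14a1 lie off 0 on both axes. Col19a1 and Col5a2, whose other probe sets lay below the lower quartile of genes, lie near 0 on the vertical axis.

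Genes for making and processing collagen went both ways. Of 26 measured of 35 on the list, 3 rose (11.5%, against 9.76% of all genes) and 5 fell (19.2%, against 8.47% of all genes), with a median change of -0.10. Pcolce, which enhances removal of the procollagen end piece, was 3.04-fold lower, at 5.97, 5.68 and 5.70 on hypomorph arrays, against 6.73, 8.41 and 7.02 on wild-type arrays (adjusted p = 0.0368). Serpinh1, the collagen-specific chaperone HSP47, was 2.06-fold lower, at 5.23, 4.94 and 4.83 on hypomorph arrays, against 5.73, 6.63 and 5.76 on wild-type arrays (adjusted p = 0.0319). In both, wild-type replicate 2 was the highest array, as for Col1a2 and Col4a1.

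Bmp1, the protease that removes the procollagen end piece, also fell (log2 change -0.48, adjusted p = 0.019), as did P3h4 (-0.42, adjusted p = 0.0473) and Ppib, the prolyl isomerase cyclophilin B (-0.31, adjusted p = 0.0486). The 3 that rose were Pcolce2, a relative of Pcolce (3.01-fold, log2 change 1.59, adjusted p = 0.00137), the lysyl hydroxylase gene Plod1 (2.14-fold, adjusted p = 0.00182) and the galactosyltransferase gene Colgalt1 (1.42-fold, adjusted p = 0.00919). P4hb, a subunit of prolyl 4-hydroxylase and a general disulphide isomerase, was at 10.32 ± 0.08 in the hypomorph and 10.26 ± 0.02 in wild type (SD, n = 3 each; limma adjusted p = 0.651). The crosslinking enzyme gene Lox had a change of -0.26 (adjusted p = 0.0573). The number that fell was 0, 0 and 1 without hypomorph replicate 1, 2 and 3 (6 at an unadjusted p under 0.05 in each fit by limma). In those fits 2.78%, 1.82% and 1.55% of all genes fell. It was 3 without wild-type replicate 1 or 3 (7.90% and 6.49% of all genes), and 5 rose without wild-type replicate 2 (9.55% of all genes).

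Of 18 measured genes for collagen receptors, uptake and breakdown, 3 rose (16.7%, against 9.76% of all genes) and 1 fell (5.56%, against 8.47% of all genes). Mmp13, a collagenase that cleaves the intact helix, was 5.90-fold higher, at 5.54, 6.06 and 6.62 on hypomorph arrays, against 3.41, 3.39 and 3.74 on wild-type arrays (adjusted p = 0.00192). Mrc1, the mannose receptor, which also takes up collagen, was 5.04-fold higher, at 11.59, 11.49 and 11.45 on hypomorph arrays, against 8.64, 9.57 and 9.32 on wild-type arrays (adjusted p = 0.00169). Lair1, an inhibitory receptor of leukocytes that binds collagen, was 2.20-fold higher, at 8.46, 8.61 and 8.68 on hypomorph arrays, against 7.45, 7.45 and 7.44 on wild-type arrays (adjusted p = 0.00129). In all 3 the groups lay far apart compared with their spread.

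Adgrg1, a receptor for type III collagen, fell (log2 change -0.55, adjusted p = 0.0102). Itgb1, the shared beta chain of the collagen-binding integrins, had a change of 0.31 (adjusted p = 0.161). Mmp13, Mrc1, Lair1 and Adgrg1 each passed in all 6 fits with 1 array left out, and 2 genes of the list fell without wild-type replicate 3 (6.49% of all genes).

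Markers of other cell types moved in the same arrays, and their part in the collagen differences was not tested. Of all genes tested, 8.47% fell and 9.76% rose. Of 14 stromal and fibroblast markers measured, 6 fell (42.9%) and 1 rose (7.14%), with a median change of -0.56, and their summed linear signal ran from 1052 to 1625 on hypomorph and from 1639 to 3916 on wild-type arrays. Bgn and Sparc, matrix genes of fibroblasts, were 2.96-fold and 3.19-fold lower (adjusted p = 0.0238 and 0.017). Cxcl13, the brightest of the 14, overlapped between the groups and did not pass (change -0.20, limma adjusted p = 0.757). Postn, a matrix protein gene of fibroblasts, rose 1.80-fold (adjusted p = 0.0073). Fbln1, Lum and Pdpn were below the lower quartile of genes.

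Of 12 endothelial markers, 3 fell (25%) and 0 rose, with a median of -0.49 and a summed signal from 1208 to 1352 on hypomorph and from 1446 to 3018 on wild-type arrays. Plvap was 3.57-fold lower (adjusted p = 0.0236), and Emcn and Tie1 were below the lower quartile. Other endothelial markers went differently, and are named after their values were seen. Pecam1 and Vwf were higher on every hypomorph than on every wild-type array without passing (changes of 0.34 and 0.24, adjusted p = 0.0809 and 0.147), and Stab2 had a change of -0.01 (adjusted p = 0.987). Wild-type replicate 2 was the highest array for 9 of the 14 stromal and 9 of the 12 endothelial markers. Of 6 megakaryocyte and platelet markers 2 fell (33.3%) and 0 rose, with a summed signal from 293 to 339 on hypomorph and from 402 to 589 on wild-type arrays, and wild-type replicate 2 was the highest for 0 of them. All 14 red pulp macrophage markers rose (median 1.76, summed signal from 45478 to 49173 on hypomorph and from 10494 to 16907 on wild-type arrays), with Adgre1, 4.32-fold higher, at the smallest adjusted p (0.00136). Of 8 dendritic cell markers 3 fell (37.5%), 0 rose and 5 did not pass, and 4 had a change above 0. Those that fell were Ciita (-0.93, limma adjusted p = 0.00903), Zbtb46 (-0.63, adjusted p = 0.0106) and Itgax (-0.37, adjusted p = 0.0341). The summed signal overlapped, from 21904 to 23773 on hypomorph and from 22183 to 24069 on wild-type arrays. The list's mean log2 value did not, at 10.36, 10.24 and 10.31 on hypomorph and 10.57, 10.48 and 10.41 on wild-type arrays.

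**Figure D5:**
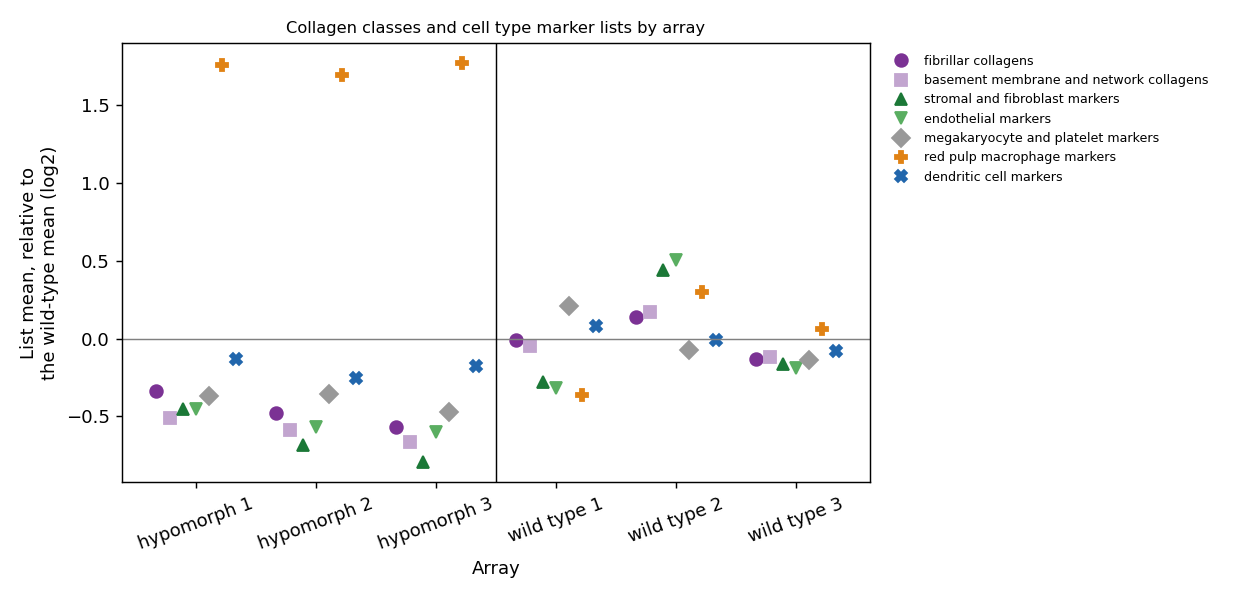
Mean log2 value of each list on each array relative to its wild-type mean (vertical axis), for 2 collagen classes and 5 marker lists, with hypomorph arrays left of the line and wild-type arrays right of it. Macrophage markers stand above the wild-type arrays on all hypomorph arrays, while the fibrillar and basement membrane collagens lie below 0 there, as do the stromal and endothelial markers, which are highest on wild-type replicate 2.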

How the data were processed

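Expression was measured on Affymetrix MOE430A arrays in 6 samples, although the sample titles name the arrays differently. The deposited values are 1 log2 value per probe set and array, made with Affymetrix Power Tools per the submitters' processing notes, whose version and settings the sources used here do not give. The log2 scale was inferred from the range of the values, and normalization between arrays from their close medians (5.66 to 5.72), which hides differences in total RNA per cell. The number of arrays limits the precision.

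Of 22690 probe sets, 20379 named a single gene in the platform annotation, and 0 named a collagen together with another gene. The hypomorph was set against wild type by limma 3.58.1 under R 4.3.3 (lmFit, eBayes, two-sided, no covariate, no filter), a fit checked on simulated data, with Benjamini-Hochberg adjustment over all 12393 genes and a threshold of 0.05. Python 3.11.15, pandas 2.3.3 and matplotlib 3.10.9 made tables and plots.

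The collagen genes and lists were chosen with earlier results of these data known. Named were collagen genes above the median gene or past the threshold and all chains of types I, III, IV, VI, XV and XVIII, at most 6 listed genes each way for the collagen pathway with P4hb, Serpinh1, Lox, Lair1, Itgb1 and Mrc1, and the leading markers. Other collagen genes are given by their change. Promoter windows are from RefSeq (27 of 36 collagen genes matched).

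Alternatives were averaged probe sets, every probe set alone, genes above the median gene alone, quantile normalization, trend and robust eBayes, the replicate number as a block, the spike-in covariate and leaving out each array.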

Additional observations from a re-analysis of the deposited data

How the results depend on the processing

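The numbers of collagen genes that fell and rose were 6 and 2. They were 7 and 2 with averaged probe sets and after quantile normalization, and 6 and 2 with every probe set tested alone. With trend and robust eBayes they were 5 and 1, among genes above the median gene alone 3 and 1 (4 collagen genes tested, median change -1.25), and with the spike-in covariate 0 and 0 (0 lower and 1 higher at an unadjusted p under 0.05 by limma). When 1 array was left out, fallen collagen genes ranged from 1 to 9, risen ones from 0 to 2, and their median change from -0.286 to -0.134. In the same fits from 1.55% to 8.78% of all genes fell and from 4.44% to 9.55% rose. For collagen biosynthesis genes, 5 fell and 3 rose. The fallen numbered 3 with trend and robust eBayes, 2 among genes above the median gene (11 tested) and 0 with the spike-in covariate (1 at an unadjusted p under 0.05 by limma), which also left 0 risen (1 at an unadjusted p under 0.05). They ranged from 0 to 4 with 1 array left out, and the risen from 3 to 5. For receptors and breakdown, 1 fell and 3 rose. The fallen numbered 2 with every probe set alone and with trend and robust eBayes, and 0 among genes above the median gene and with the spike-in covariate (0 at an unadjusted p under 0.05 by limma in both), which left 0 risen (1 at an unadjusted p under 0.05). They ranged from 1 to 2 with 1 array left out. The cause of these differences was not tested, except that fewer genes or samples were tested where so stated.

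The replicate numbers were not shown to pair the arrays. Deviations from the group means of same-numbered arrays correlated at 0.153, 0.011 and 0.106 across genes for numbers 1, 2 and 3, and 2 of the 3 hypomorph arrays correlated best with their own number. With the replicate number as a block, 3 collagen genes fell (Col18a1, Col1a2 and Col5a2) and 1 rose (Col19a1), 0 biosynthesis genes fell (6 at an unadjusted p under 0.05 by limma) and 2 receptor and breakdown genes fell. Over all genes the block left 753 risen and 478 fallen, against 1210 and 1050 without it. Among the named collagen genes, no change that passed the threshold turned its sign under any of these alternatives, while 12 collagen genes that did not pass did so with the spike-in covariate, among them Col1a1 (0.53), Col4a3 (0.60), Col4a6 (0.80), Col6a1 (0.46) and Col15a1 (0.12). Dim members limit what can be seen, since 13 of the 36 lay in the range below the lower quartile of genes.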

Other observations

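Several proteins that are not collagens carry a collagen-like stretch. They were looked at after the values were seen, so their counts describe these arrays and were not tested as a list. Of 17 such genes measured, 6 rose by limma (35.3%, against 9.76% of all genes) and 0 fell (8.47% of all genes), and the median change was -0.02. The 6 were the complement genes C1qa (3.71-fold), C1qb (3.11-fold) and C1qc (3.89-fold), the ficolin gene Fcna (3.43-fold) and the scavenger receptor genes Msr1 (1.80-fold) and Marco (1.73-fold). Fcna was at 12.44, 12.29 and 12.38 on hypomorph arrays, against 10.17, 10.85 and 10.77 on wild-type arrays, without overlap. All 6 are genes that macrophages express, and 4 of them, C1qa, C1qb, C1qc and Marco, were also on the red pulp macrophage list. The surfactant genes Sftpa1 and Sftpd, the collectin gene Mbl1 and the adipose gene Adipoq were below the lower quartile of genes.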
